A study of Rattus norvegicus with 24 samples.

Results

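The genes described here encode plasma proteins of coagulation, fibrinolysis and complement that the liver secretes. The list held 41 genes, grouped by what their products are known to do. A gene was followed where an array probe set carried its symbol and no other, which gave 37 genes on 38 probe sets (Cpb2 had 2), of 16856 genes with such a probe set. The other 4 are not analysed here: C2 and Cfb share a probe set with one another, Kng1 shares one with another kininogen gene, and C5 is likewise not reported. Members include the clotting factors F2, F5, F7, F9 and F10, the contact system (F11, F12, Klkb1), the fibrinogen chains and F13b, the anticoagulants and serpins (Proc, Pros1, Serpina1, Serpinc1, Serpind1), fibrinolysis (Plg, Serpinf2, Cpb2), classical and lectin complement (C1r, C1s, C4bpa, Mbl1, Mbl2, Masp1, Masp2), C3 with Cfd and Cfi, and the terminal pathway (C6, C7, C8a, C8b, C8g, C9, Vtn).

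Liver RNA came from grown F2 females of the Sprague-Dawley strain, with 1 Affymetrix whole-transcript array per animal and 24 arrays in all. The females descended from F0 grandfathers that ate chow (the chow line) or a high-fat diet, HFD (the HFD line), and themselves ate chow or an HFD with 42 or 45% of energy from fat for 12 weeks. There were 7 females of the chow line fed chow (GpatCD-CD) and 6 fed the HFD (GpatCD-HF), and in the HFD line 6 fed chow (GpatHF-CD) and 5 fed the HFD (GpatHF-HF). No genetic alteration or drug treatment is given. No label links a female to its litter, parents or grandfather, so p-values treat each array as an independent animal and would be too small if females were related. A protocol field names gonadal white adipose tissue, whereas titles, sources and tissue labels say liver. The hepatocyte genes Alb, Ttr and Cps1 had medians of 13.49, 13.18 and 12.99 in log2 signal over the 24 arrays, and the adipocyte genes Adipoq, Lep and Plin1 had 6.06, 5.78 and 6.28, below the middle of all probe sets in each case.

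Coagulation factors circulate as inactive precursors that activate each other in sequence until thrombin, the product of F2, cuts fibrinogen into fibrin, and plasmin, the product of Plg, dissolves the clot. Complement is a parallel set of proteases and binding proteins. Its classical and lectin branches and its alternative loop meet at C3, and its terminal proteins form a pore in the target membrane. Hepatocytes make most of these proteins, many of their genes are controlled by liver-enriched transcription factors, and several, fibrinogen above all, rise in the acute phase response under interleukin-6.

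The 3 fibrinogen chains are encoded by genes that lie next to each other in the order Fgg, Fga, Fgb in the RefSeq annotation. Their promoters are shown because Fga was the only gene of the list that passed the test in any comparison, and because the chains are built into 1 protein. Each stretch runs 5′ to 3′ on the gene's strand from 250 bases before the start of transcription to 50 after it, from RefSeq with build GRCr8: Fga at chr2:170671919-170672218 (plus strand), Fgb at chr2:170700826-170701125 (minus strand) and Fgg at chr2:170652833-170653132 (plus strand). Capitals mark matches, on either strand, to the HNF1 half-site GTTAAT, the interleukin-6 response core CTGGGA and the C/EBP motif TTGCNNAA.
Fga: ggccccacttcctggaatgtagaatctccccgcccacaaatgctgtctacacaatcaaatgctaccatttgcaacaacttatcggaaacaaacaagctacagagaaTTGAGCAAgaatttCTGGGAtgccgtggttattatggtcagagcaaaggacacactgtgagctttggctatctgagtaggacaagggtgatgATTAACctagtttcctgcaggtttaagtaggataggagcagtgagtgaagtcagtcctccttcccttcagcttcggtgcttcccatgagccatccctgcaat
Fgb: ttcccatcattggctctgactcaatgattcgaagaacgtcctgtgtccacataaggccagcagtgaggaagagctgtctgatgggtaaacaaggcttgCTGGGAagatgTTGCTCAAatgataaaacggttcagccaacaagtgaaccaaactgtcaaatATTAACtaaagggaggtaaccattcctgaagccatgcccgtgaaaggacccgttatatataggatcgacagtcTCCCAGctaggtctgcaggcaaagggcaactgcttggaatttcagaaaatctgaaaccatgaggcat
Fgg: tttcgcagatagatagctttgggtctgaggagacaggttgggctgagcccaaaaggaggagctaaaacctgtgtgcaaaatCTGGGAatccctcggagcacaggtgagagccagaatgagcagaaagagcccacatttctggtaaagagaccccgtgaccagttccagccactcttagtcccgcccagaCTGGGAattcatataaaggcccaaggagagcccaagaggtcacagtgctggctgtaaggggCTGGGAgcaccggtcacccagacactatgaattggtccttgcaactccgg

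The Fga stretch held an HNF1 half-site 52 to 47 bases before the start, and Fgb held one 90 to 85 bases before it. Fgg held no match to GTTAAT in this window and matched CTGGGA at 3 places. A promoter was listed for 30 of the 37 genes. GTTAAT was found in 8 of the 30 and in 7.45% of all 33469 promoters listed, CTGGGA in 17 of the 30 and in 30.3%, and TTGCNNAA in 11 of the 30 and in 10.6%. The STAT motif TTCNNNGAA was found in 6 of the 30 and in 8.87% of all promoters, and TATAAA in 2 of the 30 (C6 and Fgg) and in 14.2%. These are letter matches, not measured binding sites, and the marked matches do not overlap with one another in the 3 stretches shown.

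Signal is given as log2(intensity + 16) after quantile normalization, which gives every array the same distribution of values. It is a relative scale, and the offset of 16 understates changes of dim probe sets. Levels of different probe sets are set against each other only for brightness ranks and for the tissue genes above. The genes were bright: 35 of the 38 probe sets lay among the brightest 10% on the array. The exceptions were C7, Cfd (adipsin, the protease that starts the alternative loop) and the dim one of the 2 Cpb2 probe sets, all near the middle of the brightness range. All 38 passed the filter on dim probe sets, so no member was lost there. Their median SD between arrays of a group was 0.109, against 0.165 for all 15687 probe sets tested (0.139 against 0.192 with the deposited values).

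**Figure D1:**
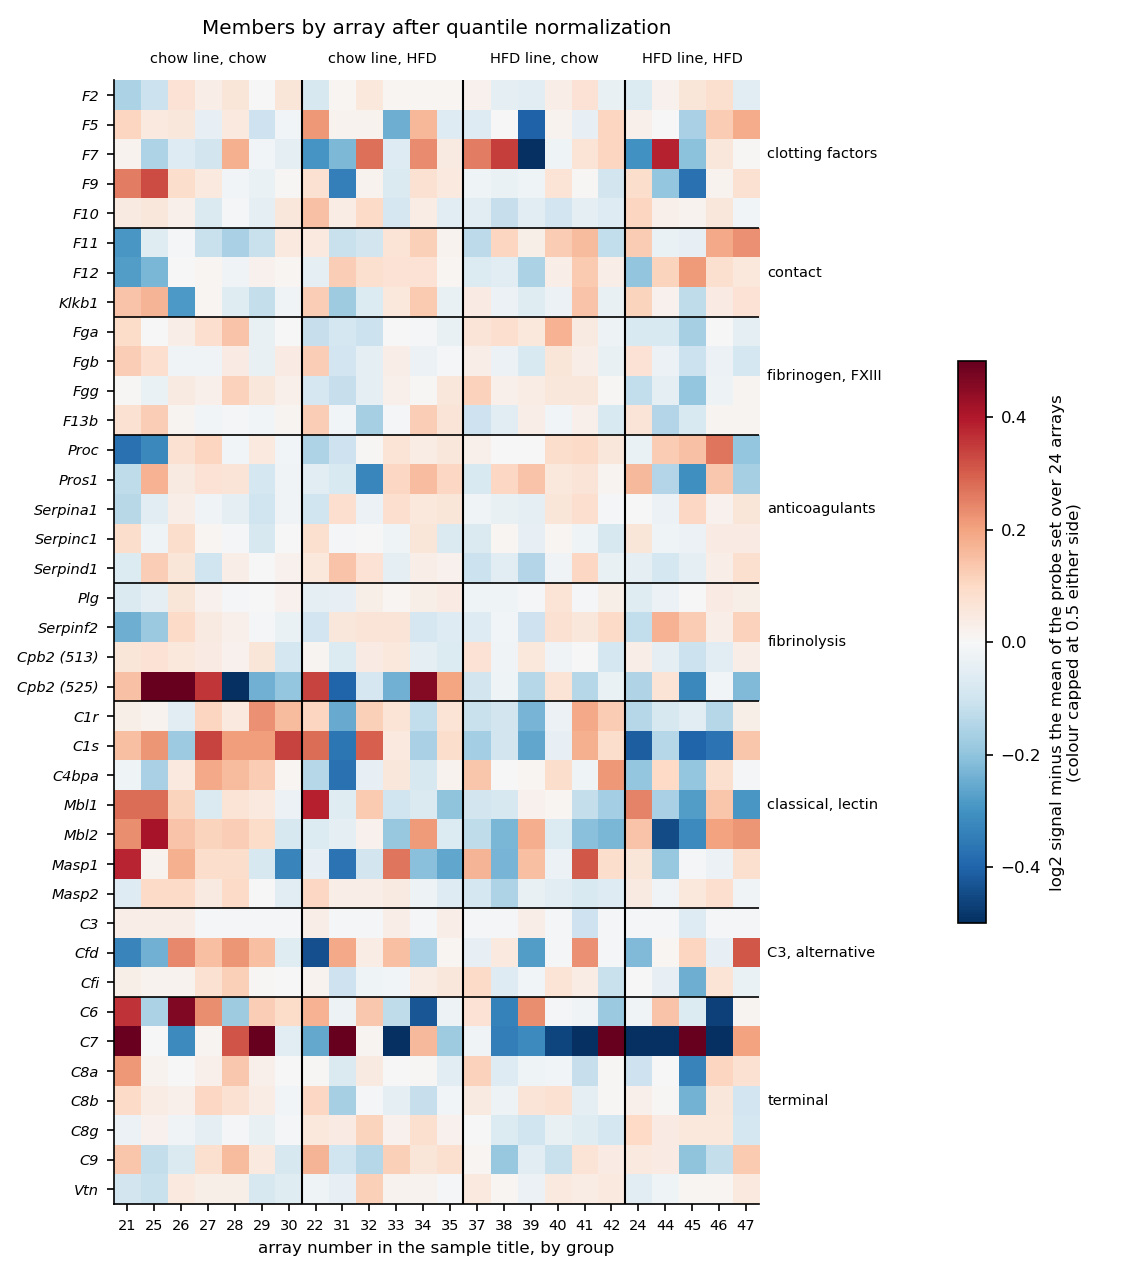
Log2 signal of the 38 member probe sets (rows, ordered by role) on the 24 arrays (columns, ordered by group), shown as the difference from each probe set's mean. C7 and the dim Cpb2 probe set vary most between arrays of a group, with SDs of 0.675 and 0.318, and no group forms a block of its own.

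The members differed in how much they varied between animals. C3, the hub of the complement cascade, and Plg, the plasmin precursor, had the lowest SDs within groups, 0.087 and 0.088 with the deposited values. After quantile normalization these were 0.030 and 0.040, but at the top of the array that step gives nearly the same few values to every array. C7, a terminal pore component, ranged over 2.58 log2 units after normalization. The next most variable were the dim Cpb2 probe set (SD 0.318), F7, the factor that starts clotting with tissue factor (SD 0.231), C6, a pore component (SD 0.224), and Cfd (SD 0.21). The bright probe set of Cpb2, which encodes a carboxypeptidase that slows fibrinolysis, had an SD of 0.057, so the 2 Cpb2 probe sets did not report the same spread. F7 spanned 10.27 to 11.16, with both ends among HFD-line females, on chow and on the HFD respectively.

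Some arrays stood apart. Arrays 21 and 25 were of GpatCD-CD, 22 of GpatCD-HF and 24 of GpatHF-HF. They had scores of -24.9 to -21.1 on the first principal component, which held 15.8% of the variance, and the other 20 arrays lay between -3.1 and 17.3. Among the members, these 4 arrays, as deviations from group means, were higher than the other 20 by 0.316 for Mbl1, 0.199 for F9 and 0.116 for Fgb, and lower by 0.239 for Proc, 0.217 for F12 and 0.382 for Cfd. The submitters' labels give no batch that could be set beside them, and none of the 4 is of GpatHF-CD.

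The first question was whether the females' own HFD changed these genes. Averaged over both lines, 1 of the 38 probe sets passed an adjusted p of 0.05 in limma, against 427 of all 15687 tested (2.72% in either direction, 1.66% lower). That gene was Fga, the fibrinogen alpha chain, which was lower on the HFD. No other member passed the threshold. The member fold changes (HFD minus chow, log2) had a median of -0.011 and ran from -0.172 to 0.093, and 17 of 38 were above 0, beside a median of 0.005 and 52.2% above 0 for all tested. At an unadjusted p of 0.05 there were 7 members, 2 higher and 5 lower, against 7.88% of all tested higher and 8.06% lower.

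**Figure D2:**
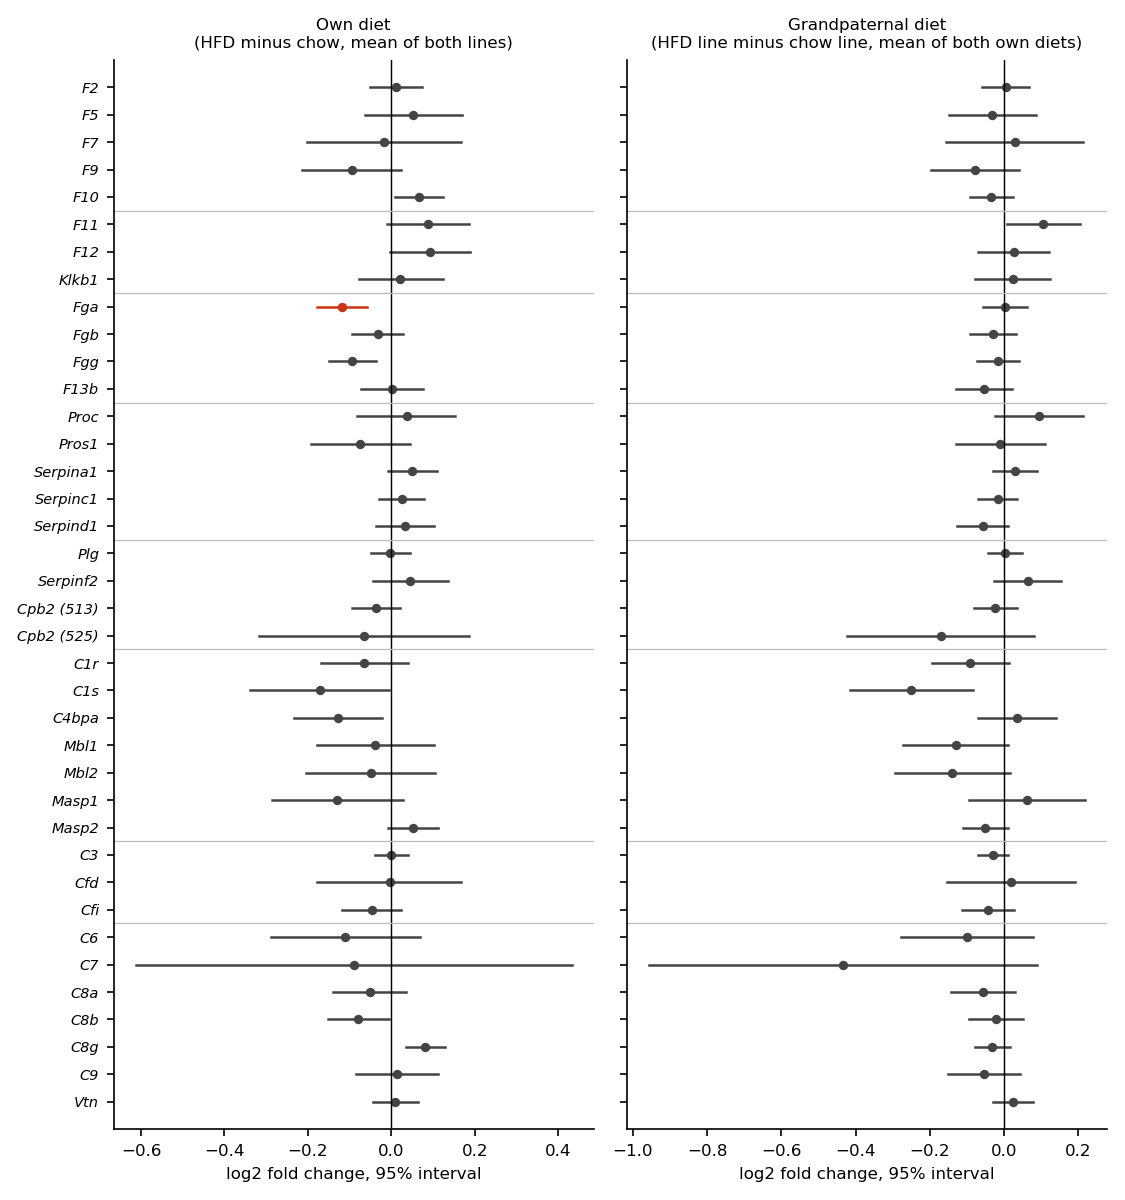
Log2 fold changes with 95% confidence intervals for the 38 member probe sets, averaged over lines for own diet and over own diets for grandpaternal diet. Most intervals are narrow and cross 0; Fga is the one member past the adjusted threshold, and C7 has the widest interval.

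The spread put bounds on change in signal, whose width depended on the scaling. For own diet, the 95% confidence interval of 36 of the 38 probe sets lay wholly inside a 1.25-fold change in either direction, against 82% of all tested. It did so for 33 of 38 with the deposited values and 36 of 38 after centring. The share of all tested was not matched for brightness, though 35 of the 38 lay among the brightest 10%. Quantile normalization leaves little room for change there, and changes in RNA beyond the signal were not measured. The exceptions after quantile normalization were C7 and C1s, and C7 alone reached beyond 1.5-fold. Thrombin's precursor F2 differed by 0.011 ± 0.031 (SE), Plg by -0.002 ± 0.023 and C3 by 0.000 ± 0.019. The samples were whole tissue, so for every gene here fewer cells of a type and less RNA per cell cannot be told apart.

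Fga signal was 12.53 to 12.71 (median 12.60) in the 7 chow-line females on chow and 12.45 to 12.57 (median 12.51) in the 6 on the HFD. In the HFD line it was 12.54 to 12.74 (median 12.62) in 6 females on chow, and 12.49, 12.49, 12.40, 12.57 and 12.52 in the 5 on the HFD. On this scale the HFD females of each line were lower on average, and the ranges on the 2 diets overlapped slightly. The difference averaged over lines was -0.118 ± 0.029 (95% interval -0.177 to -0.059, adjusted p = 0.0233), a fall of 7.85%. In neither line alone did it pass the test (chow line -0.101 ± 0.039, adjusted p = 0.291; HFD line -0.135 ± 0.042, adjusted p = 0.166).

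The other chains were measured in the same arrays. Fgg, the gamma chain, was 12.86 to 13.01 (median 12.92) and 12.78 to 12.95 (median 12.87) on chow and on the HFD in the chow line. In the HFD line it was 12.90 to 13.01 (median 12.94) on chow, and 12.77, 12.85, 12.70, 12.87 and 12.91 on the HFD, so that 1 HFD female of 5 lay inside the chow range. The averaged difference of Fgg was -0.093 ± 0.027 and missed the threshold (adjusted p = 0.0717), which it passed without array 47 (adjusted p = 0.0373). For Fgb, the beta chain, it was -0.033 ± 0.030 (adjusted p = 0.646), and for F13b, which carries the fibrin-crosslinking factor XIII in plasma, 0.001. The difference between chains was not tested.

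The Fga call depended on the scaling. With the deposited values and no normalization between arrays, the Fga difference was -0.101 (adjusted p = 0.368), and with each array centred on its median -0.061 (adjusted p = 0.577). Without arrays 21, 22, 24 and 25 it was -0.111 (adjusted p = 0.0672). The averaged difference was below 0 in each. The chow line alone turned sign, to 0.014 with the deposited values and 0.032 after centring, whereas the HFD line stayed below 0 at -0.217 and -0.154, and none of these passed (adjusted p = 0.983, 0.889, 0.149 and 0.309). Fgg turned in the chow line too, from -0.062 to 0.079 and 0.097. With the deposited values the HFD-line groups of Fga did not overlap, with the HFD females lower. All tested probe sets had a median of -0.086 in that comparison, and their share without overlap is not given for that scale. Measured within each array as deposited log2 signal minus the mean of the other members, a setting chosen after seeing the data, Fga was lower by 0.069 on the HFD and Fgg by 0.011.

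**Figure D3:**
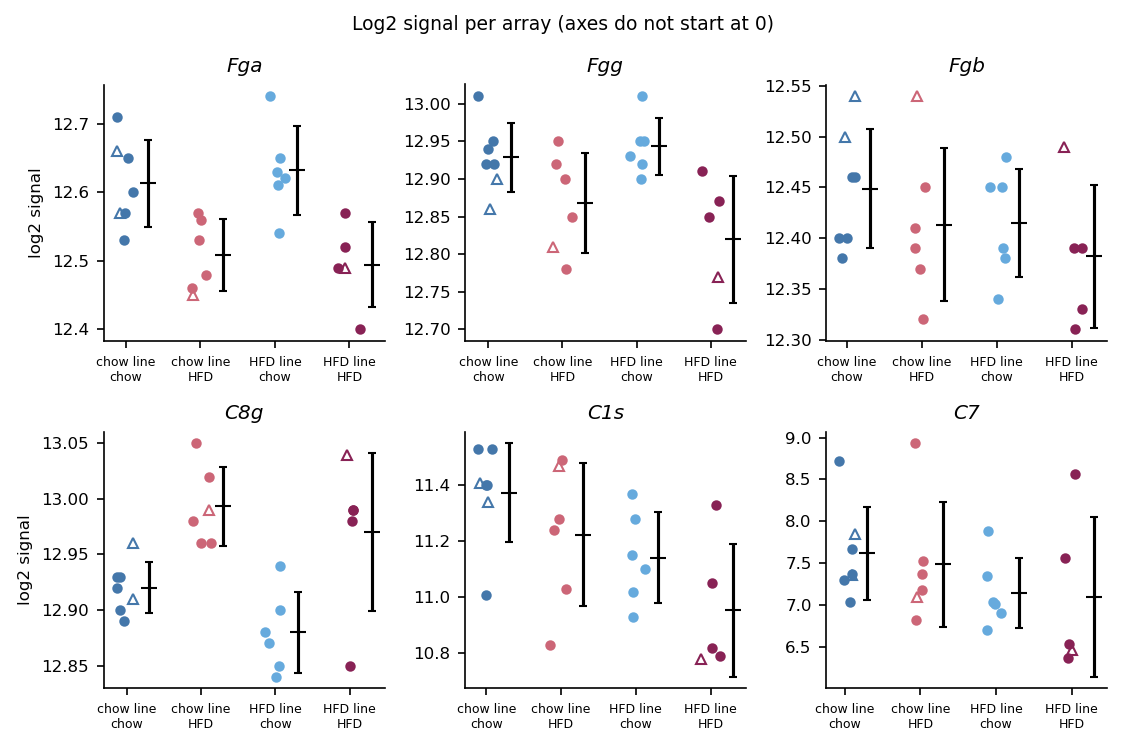
Log2 signal per array for Fga, Fgg, Fgb, C8g, C1s and C7 in the 4 groups, with group mean ± SD; open triangles are arrays 21, 22, 24 and 25. On this scale Fga is lower on the HFD in both lines with slight overlap (in the chow line the sign turns to 0.014 with the deposited values and 0.032 after centring), C8g is higher in the chow line without overlap, and C7 spreads over more than any group difference.

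C8g encodes the gamma chain of complement component 8, a lipocalin that joins the pore-forming chains. It was 12.89 to 12.96 (median 12.92) in chow-line females on chow and 12.96 to 13.05 (median 12.99) on the HFD, with every HFD female above every chow female before rounding. It was the 1 member of 38 whose groups did not overlap in the chow line, against 0.701% of all tested (0.306% higher). These groups stayed apart with the deposited values and after centring, for which the share of all tested is not given. In the HFD line it was 12.84 to 12.94 (median 12.88) on chow, and 13.04, 12.98, 12.99, 12.99 and 12.85 on the HFD, where array 47 alone fell inside the chow range. The averaged difference was 0.082 ± 0.023 and just missed the threshold (adjusted p = 0.0539); without array 47 it passed (adjusted p = 0.0104), as it did without array 37 (0.0477). With each array centred on its median, C8g was higher by 0.174 and passed (adjusted p = 0.0294), and under that scaling it replaced Fga as the 1 member called. With the deposited values the difference was 0.134 (adjusted p = 0.111), and within arrays against the mean of the other members 0.172. C8b, the beta chain, differed by -0.079 ± 0.035 (adjusted p = 0.268).

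Within single lines no member passed for own diet, against 89 of all tested in the chow line (0.567%) and 90 in the HFD line (0.574%). At an unadjusted p of 0.05 there were 2 members in the chow line (11.6% of all tested) and 5 in the HFD line (12.5%). In the HFD line the groups did not overlap for 2 members, both higher on the HFD after quantile normalization, against 2.11% of all tested (1.08% higher). The first was F10, the protease that activates prothrombin, which was 12.34 to 12.41 (median 12.39) on chow and 12.56, 12.48, 12.47, 12.51 and 12.44 on the HFD (0.108 ± 0.041, adjusted p = 0.260). The other was Masp2, the lectin pathway protease that cuts C4, which was 11.53 to 11.65 (median 11.61) on chow and 11.73, 11.67, 11.74, 11.77 and 11.67 on the HFD (0.111 ± 0.043, adjusted p = 0.271). Both results rested on the scaling. With the deposited values F10 differed by 0.031 and Masp2 by -0.022, after centring by 0.094 and 0.040, and the groups of both overlapped under either scaling. In the chow line the normalized means of Masp2 were 11.72 ± 0.07 (SD, n = 7) for chow and 11.71 ± 0.06 (n = 6) for the diet rich in fat. For F9, the factor missing in haemophilia B, the chow-line difference was -0.131 ± 0.078 (adjusted p = 0.538).

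By role, own-diet differences stayed near 0. All 3 contact system genes were above 0 (median 0.088), with F12, the factor that starts contact activation, at 0.093 ± 0.046 (adjusted p = 0.330). The signs were mixed among clotting factors (3 above and 2 below 0, median 0.011), in fibrinolysis (1 above and 3 below, median -0.019) and in the terminal pathway (3 above and 4 below, median -0.052). Of the 7 classical and lectin probe sets 6 were below 0, with a median of -0.065. C4bpa, a chain of the inhibitor that binds C4b, was at -0.128 ± 0.051 (adjusted p = 0.207). The classical and lectin split stayed 1 above to 6 below with the deposited values, after centring and without the 4 arrays that stood apart. The contact system was 2 above to 1 below with the deposited values. For Serpina1, the elastase inhibitor alpha-1-antitrypsin, the difference in the chow line was 0.075 ± 0.039 (adjusted p = 0.467). For Cfi, the protease that inactivates C3b, the averaged difference was -0.046 ± 0.034 (adjusted p = 0.544), and for the brighter Cpb2 probe set -0.036 ± 0.028 (adjusted p = 0.573). None of these passed.

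The second question was whether the grandfather's diet changed these genes in the granddaughters. No member passed on own chow, where 1 of all 15687 tested did (0.00637%), on own HFD or averaged over own diets, where none of all tested did (0% in both). At an unadjusted p of 0.05 in limma there were 3 members on own chow (11.6% of all tested), 1 on own HFD (5.53%) and 2 in the average, 1 higher (5.27%) and 1 lower (4.76%). After quantile normalization no member's groups were free of overlap, against 0.937% of all tested on own chow and 0.363% on own HFD. With the deposited values those of Fgb and C8g were apart on own HFD, both lower in the HFD line. The share of all tested without overlap is not given for that scale. In that comparison 0 of 38 deposited member differences were above 0, and all tested had a median of -0.103. The averaged fold changes (HFD line minus chow line) had a median of -0.026 and ran from -0.434 to 0.106, beside a median of 0.005 for all tested. The 95% interval stayed inside a 1.25-fold change for 35 of 38 (85.1% of all tested; 32 of 38 with the deposited values), with C7, C1s and the dim Cpb2 probe set as exceptions.

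The smallest grandpaternal p belonged to C1s, the protease of the first complement complex that cuts C4 and C2. It was 11.01 to 11.53 (median 11.40) in chow-line and 10.93 to 11.37 (median 11.12) in HFD-line females on chow. On the HFD it was 10.83 to 11.49 (median 11.26) in the chow line, and 10.78, 11.05, 10.79, 10.82 and 11.33 in the HFD line. The groups overlapped on both own diets. The averaged difference was -0.250 ± 0.080 (95% interval -0.415 to -0.084, adjusted p = 0.360), with -0.232 ± 0.109 on chow and -0.267 ± 0.118 on the HFD. It was -0.300 with the deposited values and -0.238 after centring, and did not pass in either (adjusted p = 0.320 and 0.539). For C1r, the protease that activates C1s, the averaged difference was -0.091 ± 0.050 (adjusted p = 0.550).

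The lectin pathway had the next values. Mbl2, a mannose-binding lectin, was 12.13 to 12.62 (median 12.33) in chow-line and 11.98 to 12.39 (median 12.04) in HFD-line females on chow (-0.262 ± 0.102, adjusted p = 0.343). Masp2 differed by -0.110 ± 0.040 in the same comparison (adjusted p = 0.311), and by -0.008 after centring, so its size rested on the scaling. Its HFD-line chow group is also the group against which Masp2 and F10 were higher on own HFD, so these comparisons share their 6 arrays. Means of F11, a contact factor that activates F9, were 10.73 ± 0.11, 10.84 ± 0.09, 10.86 ± 0.13 and 10.93 ± 0.13 (SD; 7, 6, 6 and 5 arrays) in the group order above, with an averaged grandpaternal difference of 0.106 ± 0.048 (adjusted p = 0.475). With the deposited values the F11 means were 10.74, 10.87, 10.89 and 10.81, so on own HFD the HFD line was the lower one. After quantile normalization the averaged difference was 0.064 ± 0.043 for Serpinf2, the plasmin inhibitor, and -0.057 ± 0.034 for Serpind1, heparin cofactor II. For C3 it was -0.029 ± 0.019, and none of the 3 passed (adjusted p = 0.642, 0.578 and 0.630). C3 had the opposite sign after centring (0.056, adjusted p = 0.739).

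C7 showed the largest grandpaternal value and the largest error. It was 7.04 to 8.72 (median 7.37) and 6.70 to 7.88 (median 7.02) in chow-line and HFD-line females on chow. On the HFD it was 6.82 to 8.93 (median 7.27) in the chow line, and 6.46, 6.53, 8.56, 6.36 and 7.56 in the HFD line. Single females in 3 of the groups lay at 8.56 to 8.93, and the averaged difference of -0.434 ± 0.254 did not pass (adjusted p = 0.573). In liver C7 is also made outside hepatocytes. The 11 stellate and mesothelial markers, all measured, had group means of 8.10 ± 0.14, 8.06 ± 0.21, 7.88 ± 0.14 and 7.97 ± 0.21 (SD) in the same order, with 2 above and 9 below 0 for grandpaternal diet (median -0.159). Their summed deposited intensity was 2753 to 4598, 2820 to 4392, 2770 to 3582 and 2455 to 3717 in the 4 groups, and none was listed at 0. Their part in the C7 values was not tested.

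The own-diet effect was also compared between the lines. No member passed the interaction test, and neither did any other probe set (0% of all tested). At an unadjusted p of 0.05 in limma, 0 members and 6.67% of all tested passed. The smallest member p was that of Masp2 (0.120 ± 0.059, adjusted p = 0.750), followed by Mbl2 (0.246 ± 0.150, adjusted p = 0.826). Masp2 turned sign with the deposited values (-0.082) and after centring (-0.037), and Mbl2 came to 0.048 and 0.093. Of the 38 members 22 were above 0 after quantile normalization, 3 with the deposited values and 4 after centring. The interval of the interaction stayed inside 1.25-fold for 28, 3 and 11 of 38 in that order.

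The direction of the members as a group could not be read apart from the scaling. For grandpaternal diet on own HFD, 13 of 38 were above 0 after quantile normalization, 0 of 38 with the deposited values and 7 of 38 after centring, with medians of -0.015, -0.137 and -0.052. In that comparison the deposited values of all tested probe sets had a median of -0.103. For own diet in the HFD line the counts were 18, 2 and 13, and in the chow line 16, 27 and 28. On the deposited scale the mean log2 signal over the 38 was 11.673 ± 0.119 (SD, n = 7), 11.718 ± 0.034 (n = 6), 11.683 ± 0.093 (n = 6) and 11.568 ± 0.104 (n = 5). After normalization it was 11.701 ± 0.020, 11.670 ± 0.024, 11.653 ± 0.029 and 11.642 ± 0.036, so much of the deposited spread between arrays was common to these bright probe sets.

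**Figure D4:**
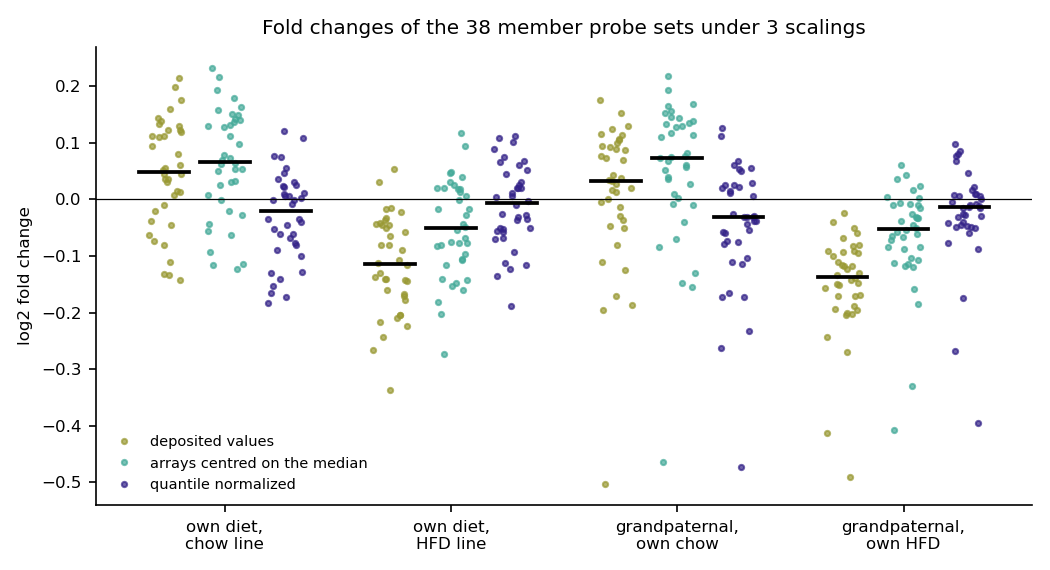
Log2 fold changes of the 38 member probe sets (points) in the comparisons under quantile normalization, the deposited values and centring on the array median. For grandpaternal diet on own HFD the number above 0 is 13, 0 and 7 of 38 in that order.

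Genes whose products are assembled together were compared across animals after each group's mean was removed. In all, 8 pairs were tested over 24 arrays with 100000 two-sided permutations within groups and adjustment over the pairs. C1r and C1s, neighbouring genes whose proteases sit in 1 complex, varied together (Pearson r = 0.84, permutation p = 1e-05, adjusted p = 8e-05; Spearman rho = 0.852, p = 1e-05, adjusted p = 8e-05), where 1e-05 is the smallest p these permutations give. Without the 2 arrays farthest from the median of C1r it was 0.788, and on the 20 arrays without those standing apart 0.843. Fga and Fgg also varied together (r = 0.59, permutation p = 0.00396, adjusted p = 0.0158; rho = 0.617, p = 0.00357, adjusted p = 0.0143; r = 0.581 without the 2 farthest arrays and 0.605 on the 20 arrays).

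The beta chain gave a split picture. Over 24 arrays r was 0.259 for Fga with Fgb (permutation p = 0.243, adjusted p = 0.39; rho = 0.297, p = 0.188, adjusted p = 0.301) and -0.00452 for Fgb with Fgg (permutation p = 0.985, adjusted p = 0.985; rho = 0.0124, p = 0.958, adjusted p = 0.958). Without the 2 farthest arrays the values were 0.192 and 0.24. On the 20 arrays they were 0.592 and 0.573, with an adjusted permutation p of 0.0171 for each. The 4 arrays apart were too few for a value of their own, and as deviations they lay above the other 20 by 0.116 for Fgb and below them by 0.059 for Fgg. C8a and C8b, the pore-forming chains, gave r = 0.605 (permutation p = 0.00987, adjusted p = 0.0263; rho = 0.502, p = 0.0251, adjusted p = 0.0669). Without arrays 45 and 46 r was 0.317, so this relation rested on those arrays. On the 20 arrays it was 0.721 (adjusted permutation p = 0.0171), and 0.42 without arrays 45 and 46. C8g gave -0.0954 with C8a (permutation p = 0.792, adjusted p = 0.906; rho = 0.0513, p = 0.826, adjusted p = 0.944; -0.0933 without the 2 farthest arrays) and 0.133 with C8b (permutation p = 0.667, adjusted p = 0.89; rho = 0.0866, p = 0.719, adjusted p = 0.944; 0.221 without them). The lectins Mbl1 and Mbl2 gave 0.43 (permutation p = 0.109, adjusted p = 0.217; rho = 0.494, p = 0.0366, adjusted p = 0.0732; 0.498 without the 2 farthest arrays and 0.414 on the 20 arrays).

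**Figure D5:**
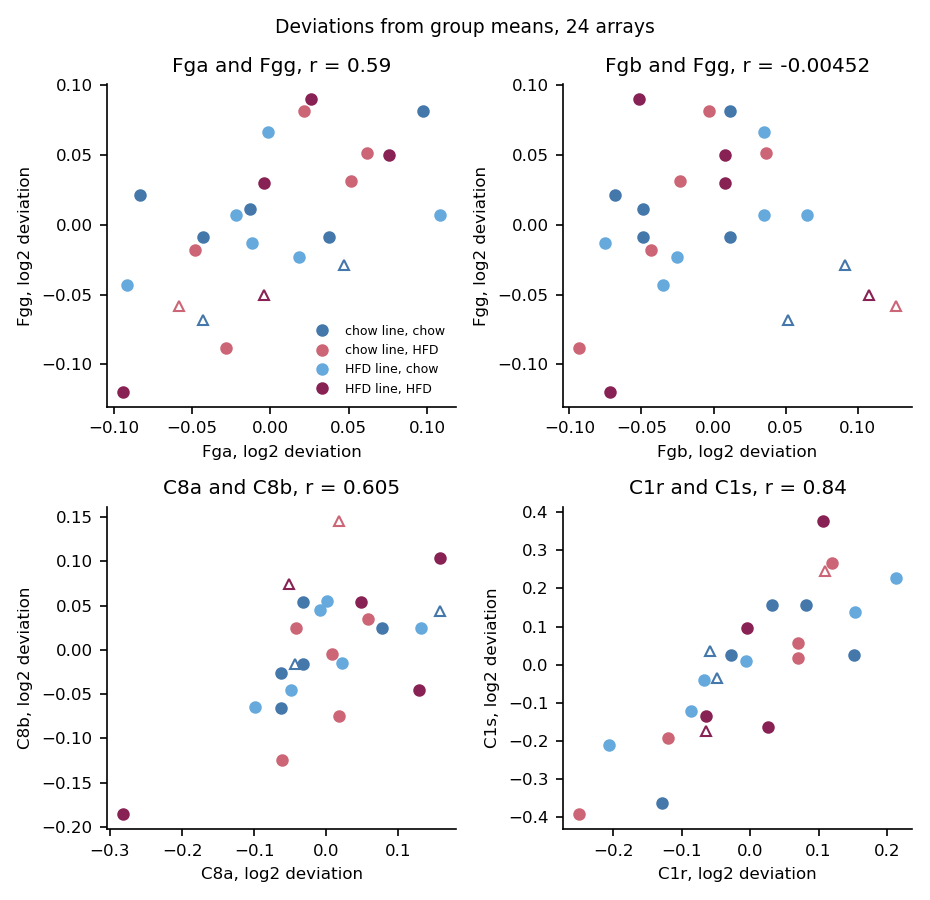
Deviations from group means (log2) over 24 arrays for 4 of the 8 gene pairs: Fga with Fgg, Fgb with Fgg, C8a with C8b, and C1r with C1s. Each point is an array, and open triangles are arrays 21, 22, 24 and 25. C1r and C1s lie along a line (r = 0.84), and the 4 arrays sit off the trend of the other 20 for Fgb with Fgg.

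Other genes of the same pathways were read from lists. Of 23 tested genes of coagulation and fibrinolysis outside the members, such as receptors and activators, none passed for averaged own diet in limma, and 7 were above and 16 below 0 (median -0.019). The smallest p there was that of Plat, tissue plasminogen activator (0.404 ± 0.139, adjusted p = 0.128). Of 6 genes of the vitamin K cycle and factor secretion 1 fell, Nqo1, a quinone reductase (-0.589 ± 0.142, adjusted p = 0.0226). Of 13 hepatocyte transcription factors 1 rose, Nr0b2, the bile acid-induced repressor SHP (0.913 ± 0.191, adjusted p = 0.00761), and 10 were above 0 (median 0.061). With the deposited values 8 of these 13 were above 0 (median 0.005), and after centring 10 (median 0.046). Of 14 acute phase genes 2 fell, Orm1, an acid glycoprotein (-0.844 ± 0.151, adjusted p = 0.00196), and Cd14, a lipopolysaccharide receptor (-0.377 ± 0.088, adjusted p = 0.0174). The acute phase median was -0.017 and became 0.026 after centring.

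Complement genes outside the members held 2 that fell of 16 tested, with 12 below 0 (median -0.092). They were C3ar1, the receptor of the C3a fragment (-0.330 ± 0.081, adjusted p = 0.0249), and Fcna, a ficolin of the lectin pathway (-0.365 ± 0.090, adjusted p = 0.0254). Macrophages express both. Of 12 Kupffer cell and macrophage markers measured, of 14 listed, all 12 were below 0 on the HFD averaged over lines (median -0.321). Of these 4 fell: Marco (-1.169), Cd5l (-0.639), Vsig4 (-0.489) and Ctss (-0.466). In the chow line all 12 were below 0 (median -0.468). In the HFD line 9 were below and 3 above 0 (median -0.174), with 0 above 0 on the deposited scale. For the interaction all 12 markers were above 0 (median 0.323), 11 with the deposited values, and none passed. Their mean log2 signal was 9.22 ± 0.20, 8.68 ± 0.21, 9.05 ± 0.28 and 8.82 ± 0.22 (SD) in the 4 groups in the order above, their summed deposited intensity was 6436 to 10846, 4308 to 7021, 5638 to 9527 and 5276 to 7820, and none was listed at 0. The part of these cells in the values of C3ar1, Fcna and Cd14 was not tested. The 14 list genes that passed for averaged own diet kept their direction and their call in that comparison with the deposited values and after centring. On the 20 arrays Nqo1, C3ar1 and Vsig4 no longer passed (adjusted p = 0.0526, 0.0802 and 0.0898), nor did Cpa1 (0.136).

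Of 11 hepatocyte markers none passed for own diet, with a median of 0.005 after quantile normalization, which leaves little room for change in such bright probe sets. With the deposited values and after centring all 11 were above 0 for own diet in the chow line (medians 0.140 and 0.158), and all 11 were below 0 for the interaction (-0.195 and -0.151). In the HFD line 0 and 7 of the 11 were above 0 for own diet under these 2 scalings (medians -0.041 and 0.022). Averaged over lines 9 and 11 were above 0 (medians 0.053 and 0.093). After quantile normalization Asgr1 had the smallest p among the 11 for averaged own diet (0.138, adjusted p = 0.270). Among 7 liver endothelial, 11 stellate and mesothelial, 7 lymphocyte, and 8 platelet and erythroid markers none passed for own diet; the smallest p belonged to Lyve1 (0.122), Reln (0.100), Cd8a (-0.212) and Gp9 (0.099). Of 10 adipocyte markers Fabp4 rose (0.619, adjusted p = 0.0401) and Cidea fell (-1.068, adjusted p = 0.000172). Of 5 bile duct markers Epcam fell (-0.540, adjusted p = 0.00519), and the other 4 were above 0 (list median 0.065). Of 6 pancreatic acinar markers Cpa1 fell (-1.405, adjusted p = 0.0293), with 3 above and 3 below 0 in that list (median 0.011). Within single lines after quantile normalization, Fcna (-0.568 ± 0.122, adjusted p = 0.0242), Nr0b2 (1.119 ± 0.258, adjusted p = 0.0402), Vsig4 and Cd5l passed in the chow line. Epcam passed in the HFD line, and Marco and Cidea passed in both. These single-line calls depended on the setting. With the deposited values no complement gene outside the members fell in the chow line. Of the macrophage markers 1 fell there instead of 3 (2 after centring). On the 20 arrays no hepatocyte transcription factor rose and no adipocyte marker fell in the chow line. In the HFD line no macrophage or bile duct marker fell on the 20 arrays. Whether the own-diet effects differ between the lines did not pass the interaction test for any gene. No gene of these lists passed for grandpaternal diet or the interaction.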

How the data were processed

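The deposited values are linear intensity values, 1 for each probe set of an array. The submitters' processing notes name Affymetrix Expression Console and PLIER as tools; their versions and options and the genome build are, as far as the sources used here go, not given. Sense-strand cDNA was made from total RNA and labelled with biotin, per the labels' protocols. Array medians were 97.9 to 128, no columns were identical, and the number of arrays limits the precision. From the deposited intensity, quantile-normalized values in limma 3.58.1 (R 4.3.3) were taken as log2(value + 16). The 25% of 20917 probe sets with the lowest mean (5230, mean log2 under 5.72) were left out. The other 15687 were fitted with lmFit (4 group means, 24 arrays), contrasts.fit and trended eBayes. Limma's two-sided p-values were adjusted by Benjamini-Hochberg over all 15687, with a threshold of 0.05. The 7 contrasts were own diet in each line and averaged, grandpaternal diet on each own diet and averaged, and the interaction. Fits were tested on simulated data.

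Names came from the platform annotation: 18197 probe sets had 1 gene, 960 several and 1760 none here. Where a list gene had several probe sets, the brightest was used. Every member is counted. Values are given for members past the threshold and for the 2 members of each role with the smallest p over the contrasts, for the 5 with the largest spread, and for list genes past the threshold or with the list's smallest p. Other members were named for their complex partners or after their values were seen. The members and lists were chosen with earlier results of these data known. Pairs were computed with SciPy 1.17.1. Promoters are from RefSeq (GRCr8); the arrays' build plays no part in them. Alternatives were no normalization or centring between arrays, no filter or a 50% filter, offsets of 1 and 50, robust or untrended eBayes, array weights, only the compared groups, the 4 arrays that stood apart left out or as a block, and each array left out in turn.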

Additional observations from a re-analysis of the deposited data

Results flagged for a closer look

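In 8 of 152 sets of values (38 probe sets in 4 groups), 1 array lay far from the others of its group by Dixon's test, where chance gives about 1 in 20. The prothrombin gene F2 was 12.52 on array 22 (chow line, HFD), with the other 5 at 12.61 to 12.65. F5, the cofactor of F10, was 10.70 on array 39 (HFD line, chow), with the others at 11.04 to 11.21. F9 was 11.60 on array 31 (chow line, HFD), with the others at 11.87 to 12.02, and C7 was 8.93 on the same array, with the others at 6.82 to 7.52. The brighter Cpb2 probe set was 12.13 on array 30 (chow line, chow), with the others at 12.24 to 12.29, and C1s was 11.01 on array 26 of the same group, with the others at 11.34 to 11.53. C3 was 13.18 on array 41 (HFD line, chow), with the others at 13.28 to 13.32, and 13.22 on array 45 (HFD line, HFD), with the others all at 13.28. C3 is among the brightest probe sets, where quantile normalization gives 1 rank the same value on every array, so this gap is a step in rank; the deposited intensity of C3 was 10060 on array 45 and 9246 to 10607 on the other 4.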

How the results depend on the processing

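No member passed in 6 of the 7 contrasts under any of the 35 to 36 fits made for each. For averaged own diet, where 1 member passed, the count was 0 with no between-array normalization, 0 without the intensity trend, 0 with arrays 21, 22, 24 and 25 left out, 2 with array weights, 3 with the 50% filter and 3 with the 4 arrays as a block; leaving out each array in turn gave 1 to 3. Beside Fga, C8g passed with array weights, and both C8g and Fgg passed with the 50% filter and with the block. Over all probe sets the count for that contrast was 427, and 312 with no normalization, 447 without those 4 arrays, 548 with array weights and 646 with the block. Fga kept its direction in all of these, at -0.106 to -0.128 when single arrays were left out (adjusted p = 0.0169 to 0.0494), and without the trend had an adjusted p of 0.0688. For the pairs, Fga with Fgb passed at r = 0.744 with no normalization, 0.726 after centring and 0.592 without the 4 arrays. Fgb with Fgg changed sign, to 0.721, 0.723 and 0.573 in the same order, and C8a with C8g to 0.417 and 0.383 in the first 2. Mbl1 with Mbl2 passed at 0.519 with no normalization. Without normalization much of the spread between arrays was common to these bright probe sets, so r there does not measure the pair alone. Pairs of unrelated genes were not tested under any scaling. C3 for grandpaternal diet changed sign after centring (0.056). Measured within arrays, the C8g difference was 0.172 and that of Fgg -0.011. The causes were not tested. No paired analysis was possible because no replicate number occurs in more than 1 group. Quantile normalization removes by construction a change common to all bright probe sets, so such a change could not be measured here.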
